A study of Saccharomyces cerevisiae with 8 samples.

Results

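The glycine response of BY4741, the parent strain of the yeast deletion collection, was measured on 2 of the 8 spotted arrays of this series. Their titles say WT and number them as replicates 1 and 3. The title of replicate 3 also holds the name of zap1, and the first bas2 array carries BY4741 in its source name. Each array compared RNA of Saccharomyces cerevisiae grown on minimal medium with 10 mM glycine, in channel 1, with RNA of the same strain grown on minimal medium alone, in channel 2, at steady state up to early log phase. The other 6 arrays made the same comparison in strains lacking bas1 (2 arrays), bas2 (2), gcn4 (1) or shm2 (1) and were used for the shared spread and for 1 contrast. As textbook background, BY4741 is an a-type haploid that lacks functional HIS3, LEU2, MET17 and URA3, so it needs supplements that the labels do not list, and the deletion strains carry the same markers. The series measured no other time or dose, and nothing in the labels says whether the 2 arrays came from separate cultures.

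Yeast uses glycine as a source of one-carbon units and nitrogen. The mitochondrial glycine cleavage system, made of the products of GCV1, GCV2, GCV3 and LPD1, splits glycine and passes a carbon to tetrahydrofolate, and the serine hydroxymethyltransferases Shm1 and Shm2 interconvert glycine and serine with the same cofactor. Folate-bound carbon is then used for purines, thymidylate and methionine. Bas1 and Bas2, the product of PHO2, activate purine genes and also act on some one-carbon genes, and Gcn4 activates amino acid synthesis genes.

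All values below are log2 ratios as deposited, averaged over the spots of a gene and centred on the median gene of their array, so 0 is the middle gene and 1 step is a doubling or halving against it. The labels do not state which channel is the numerator. Glycine is known to induce the glycine cleavage genes, which makes it likely that negative ratios mean more transcript in glycine medium; all signs are kept as deposited. The direction is not settled. The first arrays of BY4741 and of bas1 had r = -0.304 across spots. Over genes, bas1 replicate 1 correlated with BY4741 replicates 1 and 3 at r = -0.35 and 0.23, and bas1 replicate 2 at -0.22 and -0.01. Correlations with another strain cannot show which channel is the numerator. With the sign turned, every value below changes sign and the counts of low and high genes exchange. The deposited medians over genes were 0.65 on replicate 1 and 0.33 on replicate 3, and centring lowered every gene by these amounts.

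The arrays had values for 12701 and 12720 of 12800 spots, and 5512 genes were measured on both. Replicate 1 spread more widely, with an SD over genes of 0.972 against 0.379 on replicate 3. Across genes, which are not independent replicates, they correlated with Pearson r = 0.39 and Spearman rho = 0.41. The spots of a gene always lay at consecutive numbers and differed little, with a median SD of 0.051 on replicate 1 and 0.035 on replicate 3, whereas the median SD between the arrays was 0.365. Errors given as SE come from limma, fitted over all 8 arrays with 5 strain means, so the spread is shared with the deletion strains.

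GCV1 (YDR019C), which encodes the T subunit of the glycine cleavage system, had the lowest ratio of any gene on average. It stood at -6.27 on replicate 1 and -5.27 on replicate 3, a mean of -5.77 ± 0.42 (SE, n = 2) or 54.5-fold relative to the middle gene. The other folds given below are also relative to the middle gene, since the values are centred. Replicate 2 of bas1 and of bas2 had no GCV1 value, so for this gene the spread between arrays came from BY4741 alone. SNZ1 (YMR096W), a vitamin B6 synthesis gene, followed at -4.35 and -3.69, a mean of -4.02 ± 0.51 (16.2-fold). Both arrays placed these genes far below the middle, and their spots lay within 0.354 of each other on either array. At the other end FIT2 (YOR382W), a cell wall mannoprotein that retains iron, stood at 2.60 and 3.93, a mean of 3.27 ± 0.44 (9.64-fold).

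Under limma's moderated test over all 8 arrays, with Benjamini-Hochberg adjustment over 5512 genes, 0 genes passed an adjusted p of 0.05, a share of 0%. At an unadjusted p under 0.05 there were 95 negative and 92 positive genes, 1.72% and 1.67% of those tested, and the smallest adjusted p was 0.586, shared by GCV1, SNZ1, GCV3, FIT2 and TIS11. When limma's spread was taken from the BY4741 arrays alone, 2 genes passed (0.0363% of genes), both negative: GCV1 with an adjusted p of 0.0053 and SNZ1 with an adjusted p of 0.0207. Leaving out replicate 2 of bas1 and of bas2, the arrays with the most missing spots, gave the same 2 genes by construction, since BY4741 was then the only strain with more than 1 array. GCV1 and SNZ1 passed only in the fits where the spread of every gene came from BY4741 alone, with 1 residual degree of freedom. In what follows, genes are therefore described by their values on each array, and no gene is said to have changed.

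**Figure D1:**
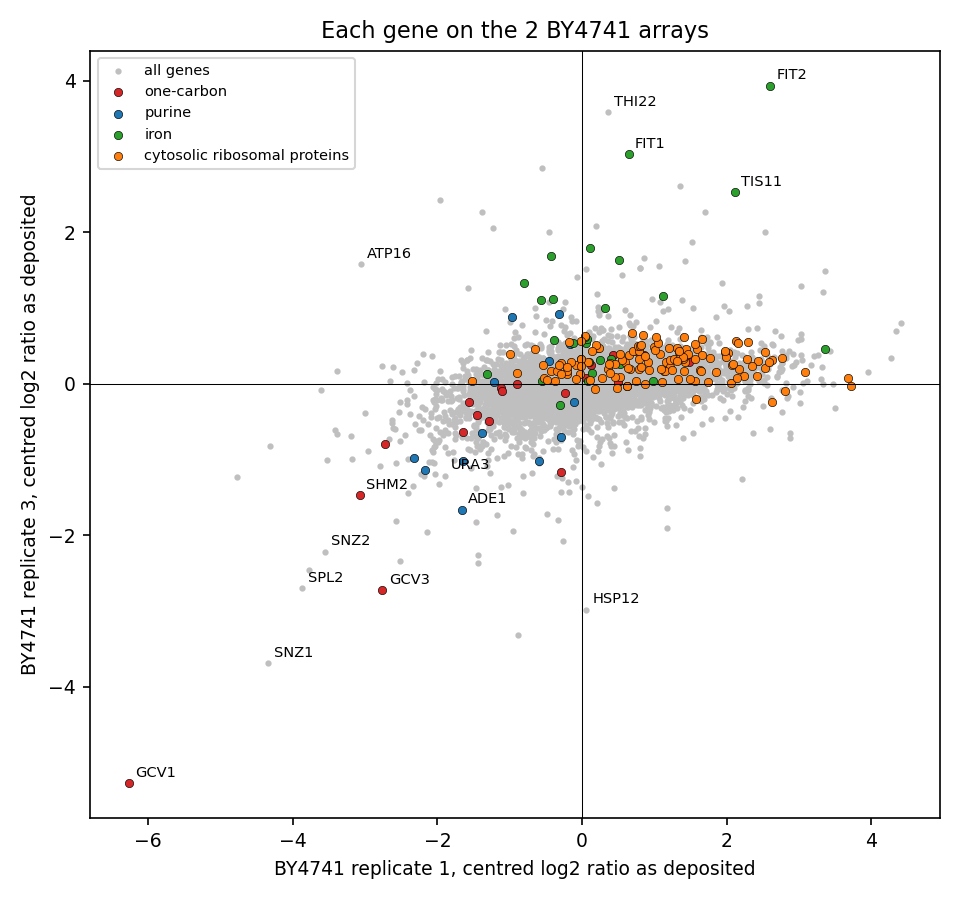
Centred log2 ratio of each of the 5512 genes on BY4741 replicate 1 (x axis) against replicate 3 (y axis), with one-carbon, purine, iron and cytosolic ribosomal protein genes in colour. GCV1 stands alone at the lower left (-6.27 and -5.27) and FIT2 at the upper right (2.60 and 3.93), while replicate 1 spreads more widely (SD 0.972 against 0.379).

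A total of 39 genes stood at -1 or lower on both arrays, 0.708% of those measured, and 20 stood at 1 or higher on both, 0.363%. Of the 39, 32 were further from 0 on replicate 1, and 12 of the 20 were. Among the 599 genes at -1 or lower on replicate 1, 6.51% were also so on replicate 3, and among the 67 on replicate 3, 58.2% were also so on replicate 1. The corresponding shares for genes at 1 or higher were 2.42% of 828 and 42.6% of 47. Genes of the lists described below made up 18 of the 39 low genes and 3 of the 20 high ones. The share of all measured genes that belong to a list was not counted, so these numbers show neither an excess nor a lack. The lists were also chosen with earlier results of these data known.

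Of the 20 one-carbon genes measured, 13 were negative on both arrays and 6 positive on both, against 32.2% and 32.1% of all genes. Their median was -1.002 on replicate 1 and -0.11 on replicate 3. The members at -1 or lower on both arrays were GCV1, GCV3 and SHM2, 3 of 20. For every list below, the shares of all genes negative or positive on both arrays are likewise 32.2% and 32.1%.

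Within the cleavage system, GCV3 (YAL044C), the lipoyl-carrying H protein, agreed closely between the arrays at -2.76 and -2.73, a mean of -2.74 ± 0.28 (n = 2). GCV2 (YMR189W), the glycine decarboxylase subunit, stood at -1.65 and -0.64, with a mean of -1.15 ± 0.50. LPD1 (YFL018C), the dihydrolipoamide dehydrogenase that the system shares with pyruvate and 2-oxoglutarate dehydrogenases, was near the middle at -0.24 and -0.12. The 4 subunits thus ran from -5.77 to -0.18 on average, in the same order on both arrays.

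SHM2 (YLR058C), the cytosolic serine hydroxymethyltransferase, was at -3.08 on replicate 1 and -1.47 on replicate 3. SHM1 (YBR263W), its mitochondrial counterpart, was at -1.46 and -0.42. Both were more negative on replicate 1, and the SHM2 mean of -2.27 ± 0.48 lay further from 0 than the SHM1 mean of -0.94 ± 0.36; the difference between the genes was not tested.

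Among the folate interconversion enzymes, ADE3 (YGR204W), the cytosolic trifunctional enzyme, stood at -2.73 and -0.80. MIS1, its mitochondrial counterpart, stood at -0.90 and -0.01, so only replicate 1 placed it below the middle by more than 0.1. MTD1 (YKR080W), a cytosolic methylenetetrahydrofolate dehydrogenase, ran the other way between arrays, at -0.29 and -1.17. The methylenetetrahydrofolate reductases MET13 and MET12, which make the methyl donor for methionine, were at -1.29 and -0.49 and at -1.11 and -0.06.

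Folate synthesis genes lay on both sides of 0. ABZ1, which makes the 4-aminobenzoate precursor with ABZ2, was at -1.56 and -0.24, while ABZ2 was at 1.48 and 0.28. FOL1, FOL2 and FOL3 had means between 0.06 and 0.29. CDC21, thymidylate synthase, was at 0.43 and 0.37, and DFR1, dihydrofolate reductase, at -1.11 and -0.10.

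Of 13 purine genes measured, 8 were negative on both arrays and 0 were positive on both, with medians of -0.97 on replicate 1 and -0.66 on replicate 3. ADE1 (YAR015W), ADE2 (YOR128C) and ADE8 (YDR408C), all enzymes of the route to inosine monophosphate, stood at -1 or lower on both. ADE1 was at -1.66 and -1.67, a mean of -1.66 ± 0.58 (n = 2), and ADE8 at -2.18 and -1.14, a mean of -1.66 ± 0.45. The 3 genes were thus negative on both arrays, and ADE1 showed the smallest gap between them.

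ADE17 (YMR120C) and ADE16, isozymes that carry out the last steps to inosine monophosphate and use formyl-tetrahydrofolate, stood apart on both arrays: ADE17 was at -2.32 and -0.98 and ADE16 at -1.21 and 0.02. ADE4, the first enzyme of the route, was at -1.39 and -0.66, while ADE6 was near the middle at -0.11 and -0.25. ADE12 and ADE13, which convert inosine monophosphate to adenosine monophosphate, were both lower on replicate 3, at -0.59 and -1.02 and at -0.29 and -0.70.

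The guanine branch had opposite signs on the 2 arrays. The genes IMD2, IMD3 and IMD4 for inosine monophosphate dehydrogenase and GUA1, for guanosine monophosphate synthase, were all negative on replicate 1, between -0.97 and -0.17, and all positive on replicate 3, between 0.30 and 0.92. GUA1 had the widest gap, at -0.97 and 0.88, and rested on 1 spot on replicate 1. IMD2, IMD3 and IMD4 are close paralogs, so cross-hybridisation between them cannot be told apart from separate signals.

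Serine and glycine genes lay on both sides of 0. SER3 (YER081W) and SER33 (YIL074C), isozymes of the first enzyme of serine synthesis from a glycolytic intermediate, were positive on both arrays, at 2.03 and 0.96 and at 1.17 and 0.30. SER1 and SER2, the following enzymes, stayed within 0.46 of the middle on either array. AGX1, which makes glycine from glyoxylate, was at -0.67 and -0.54, and GLY1, the threonine aldolase that makes glycine, at -1.10 and 0.01. CHA1, a serine and threonine deaminase that serine induces, was at -0.56 and -0.45, with a mean of -0.50 ± 0.74. Of the 9 genes of this list 4 were negative and 3 positive on both arrays, and 2 had opposite signs. The first 2 counts are 44.4% and 33.3%, against 32.2% and 32.1% of all genes.

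**Figure D2:**
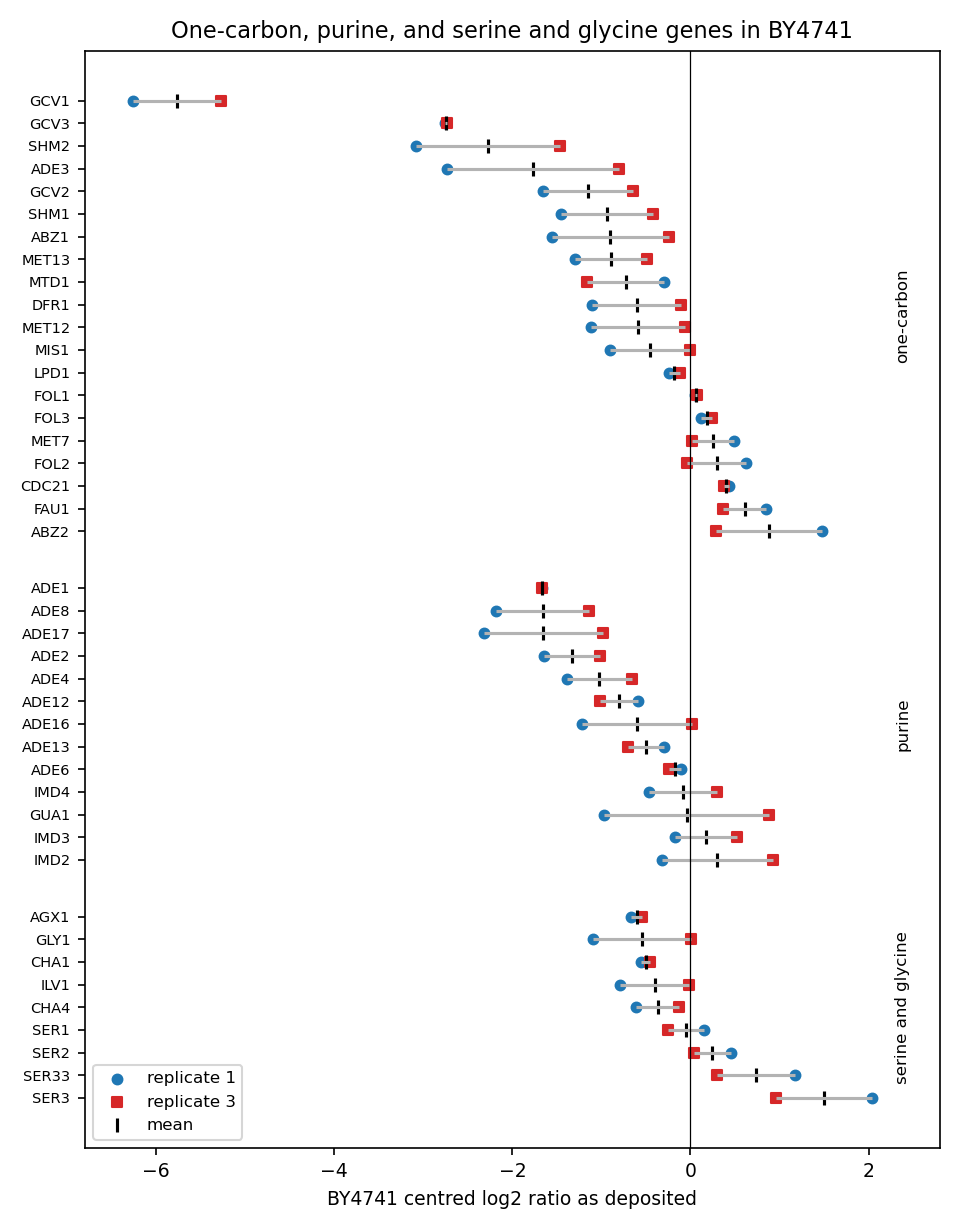
Centred log2 ratio (x axis) of each one-carbon, purine, and serine and glycine gene on BY4741 replicate 1 (circles) and replicate 3 (squares), with the mean as a tick. GCV1, GCV3 and ADE1 are far below 0 on both arrays, SER3 is above 0 on both (2.03 and 0.96), and the guanine genes IMD2, IMD3, IMD4 and GUA1 change sign between arrays.

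The list of methionine and sulfate genes joins methionine synthesis, sulfate assimilation and the routes between homocysteine and cysteine. MET6 (YER091C), the methionine synthase that takes the methyl group from folate, stood at -1.98 and -1.32, a mean of -1.65 ± 0.30 (n = 2). MET10, a sulfite reductase subunit, stood at -1.53 and -1.12, while the sulfate activation gene MET14 was at 1.16 and 0.29. STR3, a cystathionine lyase, was lower on replicate 3 (-0.96 and -1.95). Of 23 genes of methionine and sulfate use, 11 were negative and 5 positive on both arrays (47.8% and 21.7%, against 32.2% and 32.1% of all genes).

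The vitamin B6 genes included both very low and middling ratios. SNZ2 (YNL333W) stood at -3.56 and -2.22 and SNZ3 at -1.98 and -0.75, and their spots gave different values although the genes are nearly identical in sequence. Cross-hybridisation between them was not tested, so the value of either gene is uncertain. SNO1, which is divergently transcribed from the neighbouring SNZ1, was at -0.33 and -0.08. SNO2 and SNO3, which neighbour SNZ2 and SNZ3, were at -0.14 and -0.31 and at -0.33 and 0.18. TPN1, a plasma membrane pyridoxine transporter, was at -2.19 and -1.23. Thiamine genes were less even: THI22 stood at 0.35 and 3.58, THI80, thiamine pyrophosphokinase, at 2.64 and 0.34, and the near-identical THI5 and THI13 at -1.63 and -0.16 and at -1.40 and -0.15.

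Amino acid synthesis lists outside the one-carbon pathway tended below 0. Of 9 branched-chain genes, 7 were negative and 0 positive on both arrays, with medians of -1.22 and -0.30; ILV3, dihydroxyacid dehydratase, was at -1.69 and -0.49. Of 7 arginine genes, 6 were negative and 0 positive on both, with medians of -0.68 and -0.53; ARG1, argininosuccinate synthase, was at -1.90 and -0.84 and ARG3 at -1.18 and -0.98. Lysine genes did not lean one way, since LYS4 was at -1.86 and -0.48 and LYS12 at 1.15 and 0.49. HIS4, of histidine synthesis, was at -1.31 and -0.91, while HIS5 was at 0.09 and -1.49. Without centring the branched-chain and arginine medians of the gene means were -0.28 and -0.14, against -0.76 and -0.63 with it.

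Amino acid permeases were all negative on replicate 1 and mixed on replicate 3. Of 17 permeases, 12 were negative on both arrays and 0 positive on both, with medians of -1.06 and -0.07. AGP3 was at -2.08 and -1.03, and CAN1, the arginine permease, at -1.41 and -0.22. DIP5, the permease for aspartate and glutamate, went from -0.64 on replicate 1 to 0.89 on replicate 3. Hexose transporters followed the same pattern, with 19 of 19 negative on replicate 1, 15 on both, and medians of -0.93 and -0.15; HXT15 was at -2.34 and -1.35 and HXT7 at -2.05 and -0.84. HXT15 and HXT16, and HXT6 and HXT7, are near-identical pairs that may share signal.

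Glycolysis genes gave opposite signs on the arrays. On replicate 1, 19 of 21 were negative (median -1.09), and on replicate 3, 13 were positive (median 0.12), so that 12 moved from negative to positive, against 17.8% of all genes. PDC1, the main pyruvate decarboxylase, was at -1.09 and -0.01, PGK1, phosphoglycerate kinase, at -1.54 and 0.44, and ENO2, enolase, at -1.31 and 0.31. The respiratory chain and ATP synthase list showed the reverse, with 21 of 31 genes positive on replicate 1 and 29 of 31 negative on replicate 3. Its medians were 0.42 and -0.44, and 0 of 31 genes were positive on both arrays. A total of 21 went from positive to negative, against 17.8% of all genes. The genes of this list are short, with a median length of 444 bases. The 1381 shortest of all genes, of at most 804 bases, had medians of 0.33 on replicate 1 and 0.03 on replicate 3. With a curve of ratio on length removed, the median of the list over the gene means was -0.16, against 0.003 before. The part of gene length in these signs was not tested further. QCR7, a subunit of the cytochrome bc1 complex, was at 2.36 and -0.65, COX8, a cytochrome oxidase subunit, at 1.53 and -0.65, and ATP20 at 2.60 and -0.60. ATP16 went against the list at -3.06, from 1 spot, and 1.58.

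Iron genes leaned positive, and most of them lay further from 0 on replicate 3, the array with the narrower spread. Of 30, 20 were positive on both arrays and 1 negative on both, 29 were positive on replicate 3, and the medians were 0.10 and 0.54. On replicate 3, 21 of 30 lay further from 0 than on replicate 1, compared with 19.2% of all genes. The members at 1 or higher on both arrays were FIT2, TIS11 and HMX1. TIS11 (YLR136C), an RNA-binding protein that lowers transcripts of iron-using proteins, was at 2.11 and 2.53, a mean of 2.32 ± 0.31 (n = 2). HMX1, the heme oxygenase, was at 1.12 and 1.15.

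Other iron uptake genes were at 1 or higher on replicate 3 alone. FIT1, related to FIT2, was at 0.64 and 3.03. ENB1 and ARN1, siderophore transporters, were at 0.11 and 1.79 and at -0.43 and 1.68. FTR1 and FET3, the high-affinity permease and oxidase, were at -0.80 and 1.33 and at -0.40 and 1.12. ATX1, a copper chaperone for the same pathway, ran the other way, at 3.37 and 0.45.

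The general stress list was mostly negative, with 22 of 34 genes negative on both arrays and 3 positive on both. The shares of all genes were 32.2% and 32.1%. Medians of the list were -0.32 and -0.48. Without centring the median of its gene means was -0.13, against -0.62 with it. DDR2, a stress-induced gene, was at -1.46 and -1.82, and the heat shock gene SSA4 at -2.12 and -1.04. Several members were low on replicate 3 only: HSP12 was at 0.06 and -2.98, HSP26 at 0.00 and -1.37, HOR7 at 0.21 and -1.58 and CTT1, catalase T, at -0.08 and -1.29. Trehalose and glycogen genes included TSL1, of trehalose synthesis, at -2.38 and -0.40 and PGM2, phosphoglucomutase, at -1.25 and -0.67, with 10 of 18 negative on both.

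Cytosolic ribosomal protein genes leaned positive, with 102 of 133 positive on both arrays and 0 negative on both. On replicate 1 they ran from -1.52 to 3.72 with a median of 1.05, and on replicate 3 from -0.24 to 0.67 with a median of 0.28. RPS30B was at 3.68 and 0.07 and RPS10A at 3.09 and 0.15. Short genes as a whole were positive on replicate 1: the 1381 shortest genes in RefSeq, of at most 804 bases, had a median of 0.33 there and the 1370 longest -0.19, against 0.03 and -0.09 on replicate 3. Among these shortest genes, 69 ribosomal protein genes had a median of 1.24 on replicate 1 and the 1312 others 0.29, with 0.27 and 0.01 on replicate 3. With a curve of ratio on length removed, the median of the list over the gene means was 0.53, against 0.68 before.

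Histone genes were all positive on replicate 1 (median 1.71) and 9 of 10 were on replicate 3 (median 0.28). HHF2, a histone H4 gene, was at 2.92 and -0.05, HTA2, of histone H2A, at 2.50 and 0.27, and HTB2, of histone H2B, at 1.77 and 0.55. Histone genes are short, and their median without the length curve was 0.87 over the gene means, against 1.04 before. Proteasome genes were positive on both arrays for 20 of 32 (medians 0.71 and 0.09), with PRE1, of the core, at 2.47 and 0.53. Ribosome biogenesis genes had medians of 0.57 and -0.06, with NOP16 at 2.90 and 0.23 and DBP2 at -1.08 and -0.95.

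**Figure D3:**
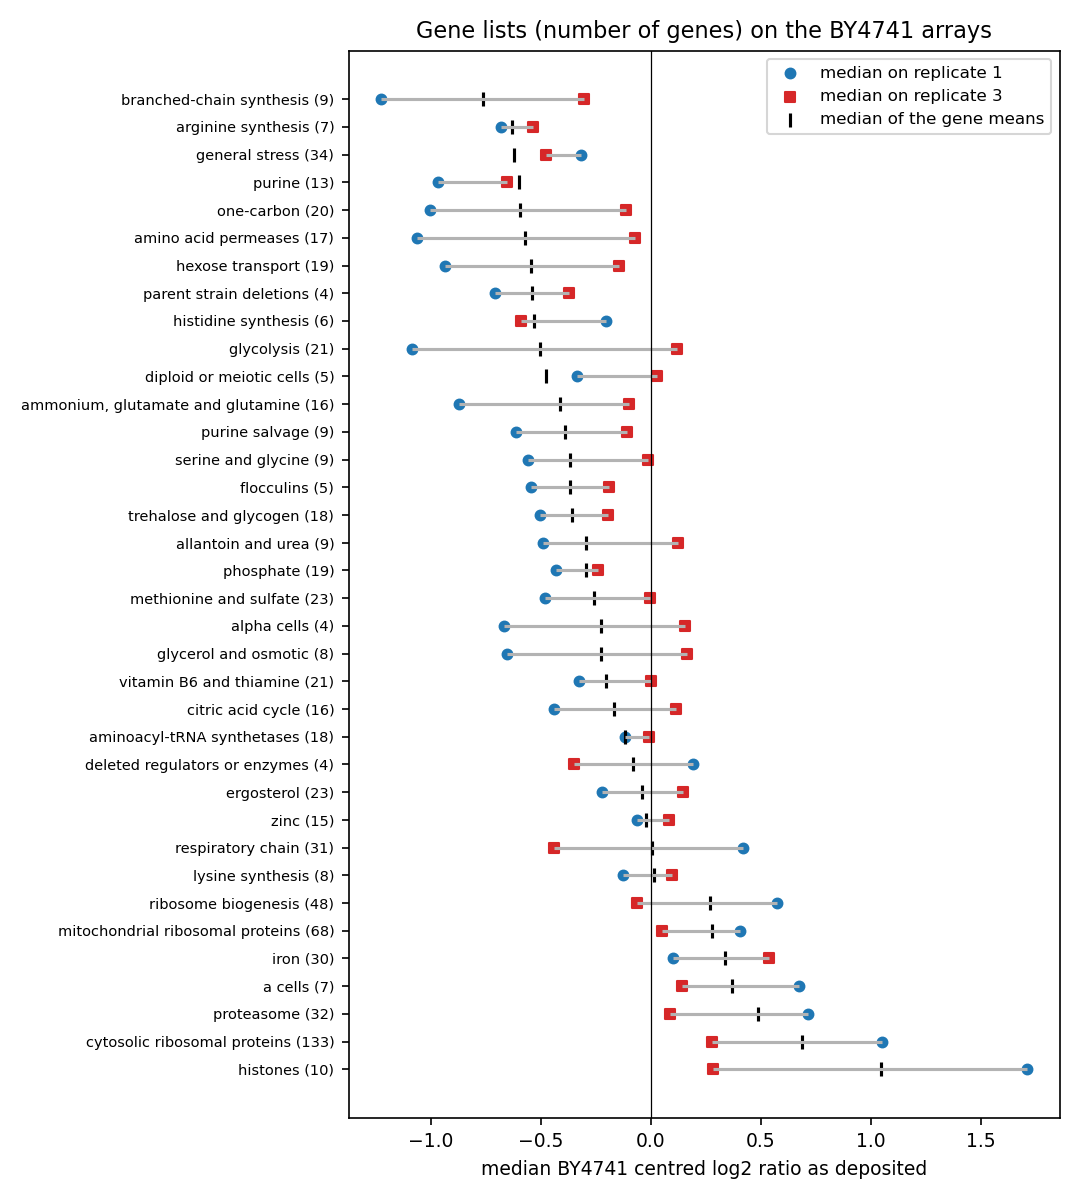
Median centred log2 ratio (x axis) of each of the 36 gene lists on BY4741 replicate 1 (circles) and replicate 3 (squares), with the median of the gene means as a tick and the number of measured genes in brackets. Of the lists, 17 are below 0 on both arrays, 6 are above 0 on both and 13 change sign, among them glycolysis and respiratory chain.

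Several other genes had large ratios of 1 sign on both arrays. SPL2 (YHR136C), an inhibitor of low-affinity phosphate uptake, stood at -3.87 and -2.70, while the other phosphate genes PHO84 and PHO5 were at -0.66 and -0.72 and at -1.21 and -0.39. MCH4, a transporter-like protein, was at -2.57 and -1.81. RTG1, a factor of the retrograde response from mitochondria, was at -2.41 and -1.45. ARO10, a decarboxylase of aromatic amino acid breakdown, was positive on both arrays at 1.42 and 1.62. YJR027W and YJR029W, retrotransposon reading frames with many copies in the genome, were at 2.29 and 1.02 and at 2.44 and 1.07.

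Some of these genes rested on few or discordant spots. BSC5 (YNR069C) was at -4.77 and -1.23, but its spots on replicate 1 lay 5.34 apart. Of the 59 genes past 1 in size on both arrays, 9 had 1 spot on at least 1 array, among them PKH3 at 3.35 and 1.48. A further 8 genes were at least 1 in size on both arrays with opposite signs, such as SCL1, a proteasome subunit, at 1.17 and -1.91 with spots 5.16 apart on replicate 3.

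The genes that are deleted in BY4741, in whole or in part, also gave ratios. URA3 was at -1.90 and -1.21 and so among the 39 low genes, with spots 1.26 apart on replicate 1. A place among the 39 therefore does not by itself show a transcript of the gene. What the URA3 spots measured was not tested. LEU2 was at -1.23 and -0.29, HIS3, of which BY4741 keeps a part, at -0.18 and -0.46, and MET17 at -0.11 and -0.03. All 4 were negative on both arrays, with medians of -0.71 and -0.37. Ratios do not give levels, so mating-type markers could not check the strain. The 7 a-cell genes had medians of 0.67 and 0.14, with 4 positive on both arrays, 1 negative on both and 2 of opposite sign. Among them MFA1 and MFA2 were at 1.96 and 0.14 and at 1.49 and 0.45. The 4 alpha-cell genes measured had medians of -0.67 and 0.15, with 1 positive on both arrays, 1 negative on both and 2 of opposite sign. The title of replicate 3 also holds the name of zap1, the zinc regulator: ZAP1 was at -0.80 and 0.17, and its target ZRT1 at 0.90 and 0.08.

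Genes of chromosomes I and III, as assigned in RefSeq, stood below the rest of the genome. On replicate 1 the median was -0.73 over 84 genes of chromosome I and -0.45 over 145 genes of chromosome III, while the other 14 chromosomes lay between -0.15 and 0.19. On replicate 3 the medians were -0.12 and -0.14, with the others between -0.07 and 0.06. Of the chromosome I genes 52 (61.9%) were negative on both arrays, and of the chromosome III genes 86 (59.3%), against 32.2% of all genes. These were also the lowest 2 chromosomes on the gcn4 array, at -0.88 for I and -0.53 for III, on the shm2 array, at -0.25 and -0.31, and on bas2 replicate 1, at -0.19 and -0.16. They were the highest 2 on bas1 replicate 2, at 0.24 and 0.33, and neither on bas1 replicate 1, at 0.03 and -0.04, nor on bas2 replicate 2, at -0.10 and -0.01.

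Genes of neighbouring chromosomes were also printed together, since spot numbers recur by chromosome with a period of 400. At the positions where chromosomes I and II share the period, 26 genes of chromosome I had a median of -0.73 on replicate 1 and 16 genes of chromosome II -0.28, with -0.14 and 0.10 on replicate 3. The parts of chromosome and of print position in this shift were not tested further.

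Of the 39 low genes, 6 lie on chromosome I, namely GCV3, ADE1, FLO9, BDH1, TDA8 and MDM10. Chromosome I holds 84 of the 5512 measured genes, and 0.708% of all genes were low on both arrays. Relative to the other genes of its chromosome on each array, GCV3 stood at -2.03 and -2.61 and ADE1 at -0.93 and -1.54, so that ADE1 was then above -1 on replicate 1. BDH1 stood at -2.06 and -0.96 relative to its chromosome, and so above -1 on replicate 3. FLO9, a flocculin, stood at -1.78 and -2.22 relative to its chromosome, compared with -2.51 and -2.34 before. With the medians of all chromosomes removed, 32 genes were at -1 or lower on both arrays and 22 at 1 or higher, against 39 and 20 before.

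**Figure D4:**
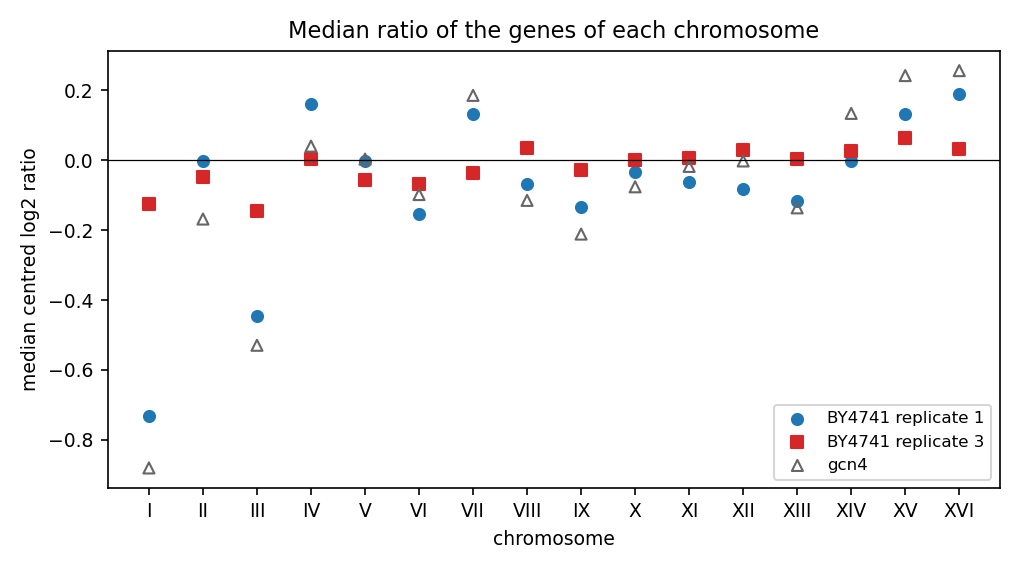
Median centred log2 ratio (y axis) over the genes of each chromosome (x axis) on BY4741 replicate 1 (circles), BY4741 replicate 3 (squares) and the gcn4 array (triangles). Chromosomes I and III are the lowest on all 3 arrays, at -0.73 and -0.45 on replicate 1, and the other chromosomes of replicate 1 lie between -0.15 and 0.19.

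BY4741 was also set against the mean of the 4 deletion strains, to ask where its response differed. Under limma, 0 of 5289 genes passed an adjusted p of 0.05, a share of 0%, with 131 at an unadjusted p under 0.05 (2.48%) and a smallest adjusted p of 0.977. Among one-carbon genes the largest difference was that of GCV1, but the deletion strains were unlike each other. GCV1 stood at -5.45 in bas2 and -4.46 in gcn4, near the BY4741 mean of -5.77, and at -1.17 in bas1 and -0.20 in shm2. Replicate 2 of bas1 and of bas2 gave no value for GCV1, so its bas2 level is that of the single array whose source name gives BY4741. The difference from their mean was -2.95 ± 0.51 (SE, limma adjusted p = 0.977), -3.53 with the sign of bas1 turned and -2.40 with bas1 left out. SNZ1 stood at -3.63 in bas2, also near its BY4741 mean of -4.02, at -1.36 in gcn4, -1.20 in bas1 and 0.74 in shm2. The bas2 value of SNZ1 likewise includes the array whose source name gives BY4741. The SNZ1 difference was -2.65 ± 0.59 at the same limma adjusted p, and -3.26 with bas1 turned. MET6 differed by -1.60 ± 0.35, and by -1.27 with bas1 turned. HAP3, a subunit of the respiratory gene activator, differed by 2.17 ± 0.43, and by 1.51 with bas1 turned. The spots of HAP3 lay 1.68 apart on BY4741 replicate 1 and 1.22 apart on replicate 3. Turning the sign of the bas1 arrays, or leaving bas1 out, also gave 0 genes past the test.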

How the data were processed

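Per the labels' descriptions, a GenePix 4000B scanned the slides, and GenePix Pro 3.0 found the spots. Each deposited value is a log2 ratio between channels; its antilog was a multiple of 0.001 (within 0.01 of a step) for 99.97% and 99.99% of spots on the BY4741 arrays. The sources used here do not give dyes, background handling, spot filters, normalization or the ratio's direction, and separate channel signals were not used here, so signal over background is unknown.

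Of 12800 spots, 11138 carried 1 gene symbol of the platform annotation, 0 several and 1662 none. Through gene identifiers 11128 spots took the RefSeq (R64) name and 10 kept the platform's. Spots were averaged into 5539 genes and each array was centred on its median gene. The sources used here name no build, and positions were left out.

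Groups came from the titles. The first bas2 array carries BY4741 in its source name, and alternatives left it out or counted it as BY4741. The BY4741 mean was tested against 0, and against the mean of the deletion strains, by the moderated test of limma (version 3.58.1, under R 4.3.3; two-sided p) in 1 fit of 5 strain means to all 8 arrays. For the first test the prior had 2.30 degrees of freedom and an SD of 0.544, with at most 3 residual degrees of freedom. The lone arrays of gcn4 and shm2 were taken to vary as the other strains did, and p-values measure the spread between these arrays, which may be technical. The fit was tested on simulated data.

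Gene lists and the rule for named genes were chosen with earlier results of these data known. Named genes were up to 15 genes a side with the largest means, past 1 in the same direction on both arrays, all measured one-carbon, purine, and serine and glycine genes, up to 3 members a side of every other list, the genes deleted in the strains and ZAP1, the opposite-sign genes with the largest gaps, and the smallest p-values of the difference. Genes outside this rule (PGK1, ENO2, PDC1, QCR7, COX8, ATP20, FIT1, ENB1, ARN1, FTR1, FET3, HMX1, HSP12, HSP26, HOR7, CTT1, DIP5, HHF2, HIS5, TPN1, THI5, THI13, SNO1, SNO2, SNO3 and PHO84) were chosen after their values were seen. Alternatives were no centring, a common median absolute deviation, other spot rules, arrays left out and, added after seeing the data, the wording of the titles as a block, and chromosome medians or a gene length curve (lowess, span 0.3) removed.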

Additional observations from a re-analysis of the deposited data

How the results depend on the processing

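The count of genes past limma's test in BY4741, 0 over all arrays, was 2 on the BY4741 arrays alone and 2 without bas1 replicate 2 and bas2 replicate 2 (the same test, since only BY4741 then had more than 1 array), and 0 under the other settings tried; without a BY4741 replicate it was 0 either way, and the 0 for the difference from the deletion strains held under all settings tried. Genes at -1 or lower on both arrays numbered 39, and 13 without centring or 172 at a common median absolute deviation; those at 1 or higher numbered 20, and 52 and 119. The purine median of -0.60 became -0.11 without centring and -1.08 at a common median absolute deviation, and ran from -0.97 to -0.66 when a BY4741 replicate was left out. The one-carbon median of -0.60 ran from -1.002 to -0.11 then, and was -0.11 without centring. No paired analysis was possible because BY4741 (replicates 1 and 3) shares only 1 replicate number with any other strain. The titles have 2 wordings, each on 4 arrays and 1 BY4741 array; with the wording as a term, added after seeing the data, 0 of 5058 genes passed in BY4741 (smallest adjusted p 0.883, limma) and 0 of 4870 for the difference. GCV1, with no value on bas1 replicate 2 and bas2 replicate 2, could not be tested there.

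Without centring, which raises all genes by the array medians, 17 of the 36 list medians turned positive: serine and glycine 0.12, purine salvage 0.095, vitamin B6 and thiamine 0.28, methionine and sulfate 0.23, ammonium, glutamate and glutamine 0.071, allantoin and urea 0.19, zinc 0.46, phosphate 0.19, trehalose and glycogen 0.13, citric acid cycle 0.32, ergosterol 0.45, alpha cells 0.26, glycerol and osmotic 0.26, diploid or meiotic cells 0.012, aminoacyl-tRNA synthetases 0.37, flocculins 0.12, and deleted regulators or enzymes 0.41. Without replicate 1, 11 medians turned: glycolysis 0.12, allantoin and urea 0.12, citric acid cycle 0.11, respiratory chain -0.44, ergosterol 0.15, alpha cells 0.15, glycerol and osmotic 0.16, ribosome biogenesis -0.062, vitamin B6 and thiamine 0.0017, zinc 0.081 and diploid or meiotic cells 0.029; the last 2 were -0.064 and -0.34 without replicate 3. Without replicate 3, 2 turned: lysine -0.13 and deleted regulators or enzymes 0.19. With bas2 replicate 1 counted as BY4741, 5 turned: zinc 0.23, respiratory chain -0.24, ergosterol 0.17, alpha cells 0.20 and glycerol and osmotic 0.14. At a common median absolute deviation, 3 turned: respiratory chain -0.32, ergosterol 0.17 and alpha cells 0.022. With the length curve removed, 5 turned: aminoacyl-tRNA synthetases 0.024, respiratory chain -0.16, lysine -0.031, ergosterol 0.034 and deleted regulators or enzymes 0.028. The diploid or meiotic median turned with 2 spots required (0.012). The cause of each turn other than centring was not tested. Of 222 named genes, 34 changed sign without centring, 11 without replicate 1 and 9 without replicate 3. No channel signals were used here, so what dim spots limit is unknown.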

Other observations

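Spots without a gene symbol numbered 1637 with a value on both BY4741 arrays. Their medians were -0.39 on replicate 1 and -0.20 on replicate 3. Of the 1637, 45 stood at -1 or lower on both arrays and 5 at 1 or higher. Among genes these counts were 39 and 20 of 5512, or 0.708% and 0.363%. Spots were counted singly here, whereas genes were averaged over their spots, so the counts are not of like units.

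With bas2 replicate 1 counted as BY4741, as its source name gives it, 0 genes passed limma's test, and GCV1 had the smallest adjusted p, 0.159. Over genes that array correlated with BY4741 replicate 3 at r = 0.46 and with replicate 1 at r = 0.07, while the gcn4 array correlated with replicate 1 at r = 0.64 and with replicate 3 at r = 0.33.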
